A study of Homo sapiens with 6 samples.

Results

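The 36 genes described here encode proteins of homologous recombination and of the Fanconi anaemia pathway. They were taken as a list of gene symbols by the function of their proteins, with no threshold on a measured value but with results of these data known, and all 36 were found among the 58676 gene identifiers of the count table and passed the filter of at least 10 counts summed over the libraries, as did 19072 genes in all. RNA was sequenced from MRC5 cells, an established human lung fibroblast line, after 24 h in conditioned medium (CM) from alveolar type II (ATII) cells of the line ATII ER:KRASV12. In that line KRASV12 is fused to a part of the oestrogen receptor (ER), so that 4-hydroxytamoxifen (4-OHT) switches RAS signalling on. The control ATII CM group (n = 3 libraries) received CM from control ATII ER:KRASV12 cells, and the 4-OHT ATII CM group (n = 3 libraries) received CM from the same cells treated with 4-OHT. Both groups therefore shared the fibroblast line, the ATII line with its transgene and the time in CM, and they differed in whether the CM donor cells had been given 4-OHT. RAS-dependent factors in the CM and any 4-OHT carried over with it cannot be told apart with these groups, and the fibroblasts were of 1 line. The labels do not say that the 3 libraries of a group came from separate cultures, so the p-values measure the spread between these libraries, which may be technical.

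Homologous recombination repairs a broken chromosome by copying the intact sister. The broken ends are cut back to single strands, the BRCA proteins prepare these strands for exchange, partner proteins help them find and invade the sister, and the joined molecules are then dissolved or cut apart. The Fanconi pathway acts on crosslinks between the DNA strands: a core complex with the E2 enzyme UBE2T attaches ubiquitin to the FANCD2-FANCI clamp, and the damage is handed on to nucleases and recombination, under the checkpoint kinases ATR and CHEK1. Many of these genes are transcribed mainly in S and G2 phase, when a sister is present, so their level in a bulk culture also depends on how many cells are dividing. A lower level in bulk RNA can come from fewer cells of a kind or from less RNA per cell, which cannot be told apart here.

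The libraries held 17691849 to 26389449 counts. Levels are given as CPM, which are counts relative to the TMM-scaled library size, and comparisons of levels between genes as CPM per kilobase of exon (RPKM). The cells carried the fibroblast markers, with all 10 of 10 listed markers tested and a summed level of 41095 to 44612 CPM in control ATII CM and 42969 to 44711 CPM in 4-OHT ATII CM. Of these markers 4 were called higher in 4-OHT ATII CM (COL3A1, DCN, LUM and PDGFRA, which stayed called whichever 1 library was left out) and 1 lower (VIM, edgeR adjusted p = 0.0414). VIM was not called without control replicate 3 or any 1 of the 4-OHT libraries (edgeR adjusted p = 0.0759 to 0.212, in a range of 0.00889 to 1 over the alternatives). Of 15 alveolar type II and epithelial markers 6 could be tested and none was called, their summed level was 9.89 to 11.9 CPM against 8.98 to 10.2 CPM, and SFTPA1, SFTPA2, NKX2-1 and ESRP1 were at 0 counts in every library. Control replicate 2 stood apart: its counts differed from those of control replicates 1 and 3 with chi-square over its degrees of freedom at 5.56 and 4.87, against 2.04 to 2.92 for the other pairs within a group, and calls that change when a library is left out are given beside the genes.

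Among the 36 genes, 5 were lower in fibroblasts kept in 4-OHT ATII CM than in control ATII CM, and none was higher. The 5 were FANCD2 and FANCI, which form the ubiquitinated clamp of the Fanconi pathway, FANCA of its core complex, BRCA1, and MND1, a partner of the strand exchange reaction, and the fitted falls ranged from 22.6% for FANCI to 51.3% for MND1. Over all genes tested, edgeR's quasi-likelihood test at an adjusted p under 0.05 called 2.76% lower (527 of 19072), 2.95% higher (563) and 5.72% in either direction. DESeq2 and limma-voom also called none of the 36 genes higher, and called 4 and 5 of them lower, where they called 3.77% and 2.89% of their tested genes lower. At an unadjusted p under 0.05, 16 of the 36 genes were lower and 0 higher, where the shares over all genes were 8.61% and 8.72%. In 16 genes the groups did not overlap at all, each time lower in 4-OHT ATII CM, against 10.4% of all genes in that direction and 11.7% in the other. The median log2 fold change was -0.17 over the 36 genes and -0.0020 over all genes tested, with 28 fitted values below 0 and 8 above. When the test asked for a change beyond 1.2-fold, none of the 36 genes was called in either direction. Without 4-OHT replicate 2 the genes called lower were 2 of the 36, and 244 of all genes, and without control replicate 2 they were 6 of the 36, and 834 of all genes.

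**Figure D1:**
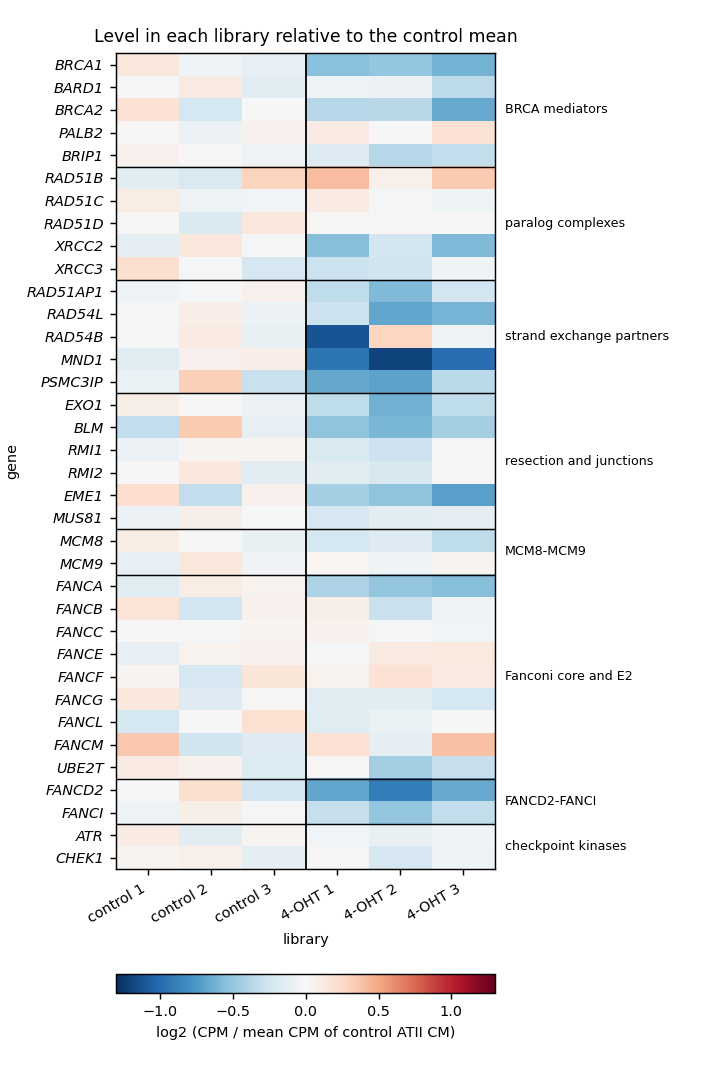
Level of each of the 36 genes in each library, as log2 of CPM over the mean CPM of the 3 control ATII CM libraries; rows are genes grouped by role, columns are libraries, blue is lower and red is higher. The rows of MND1, FANCD2 and BRCA1 are blue in all 3 4-OHT libraries, RAD54B is deep blue in 4-OHT replicate 1 alone, and the rows of RAD51C, RAD51D and FANCC stay pale in all 6 libraries.

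FANCD2 and FANCI, the clamp that slides onto DNA and is locked there when ubiquitin is attached, were both called lower. FANCD2 (ENSG00000144554, GRCh38 chr3:10026414-10101930, plus strand) was at 7.03, 8.12 and 5.91 CPM in control ATII CM and at 4.38, 3.77 and 4.45 CPM in 4-OHT ATII CM. The groups did not overlap, and control replicate 2 was the highest library. The means ± SD of the 3 libraries were 7.02 ± 1.10 and 4.20 ± 0.376 CPM. On the log2 scale the fold change was -0.73 with a standard error (SE) of 0.136 (edgeR adjusted p = 0.00390). FANCI (ENSG00000140525, chr15:89243949-89317261, plus strand) was at 17.3, 19.1 and 18.05 CPM in control and at 14.8, 12.8 and 14.6 CPM in 4-OHT ATII CM. All 3 treated libraries lay below all 3 controls, with means of 18.2 ± 0.914 and 14.1 ± 1.10 CPM and a log2 fold change of -0.37 (SE 0.0774, edgeR adjusted p = 0.00891). Without 4-OHT replicate 2, its lowest library, FANCI was not called (edgeR adjusted p = 0.0605, in a range of 0.000395 to 1 over the alternatives). Of the exon bases of FANCI, 5.9% lie opposite POLG, which had 7539 counts against 2147. The log2 fold change of POLG was -0.023 (edgeR adjusted p = 0.859). Part of the FANCD2 transcript, 22.3% of its bases, has a copy of 96.5% identity in the pseudogene FANCD2P2, which had 0 counts, and 10.1% has one of 95.7% identity in EMC3-AS1, which had 153 counts over the 6 libraries against 736 for FANCD2.

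Of the 9 genes of the Fanconi core complex and its E2 enzyme, only FANCA, a subunit of the ubiquitin ligase complex, was called lower. FANCA (ENSG00000187741, chr16:89737549-89816657, minus strand) was at 6.70, 7.95 and 7.72 CPM in control and at 5.66, 5.21 and 5.10 CPM in 4-OHT ATII CM. The groups did not overlap, and control replicate 1 was the lowest control. The means were 7.46 ± 0.666 and 5.32 ± 0.299 CPM and the log2 fold change was -0.49 (SE 0.113, edgeR adjusted p = 0.0173). FANCA was not called without control replicate 3, without 4-OHT replicate 2 or without 4-OHT replicate 3 (edgeR adjusted p = 0.0732, 0.0691 and 0.0787, in a range of 0.00474 to 0.639 over the alternatives). Of its exon bases, 23.6% lie opposite ZNF276, for which the log2 fold change was -0.22 (edgeR adjusted p = 0.121). Where the counting did not use strand, reads from such pairs cannot be told apart, and the strand setting is not given in the sources used here.

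The other 8 genes of this group had overlapping values in the 2 media and a summed level that moved little. They are FANCB, FANCG and FANCL, with FANCL the ubiquitin ligase itself, FANCC, FANCE and FANCF, the DNA translocase FANCM, and UBE2T. Their log2 fold changes ran from -0.24 for UBE2T (SE 0.118, edgeR adjusted p = 0.327) to 0.16 for FANCM (SE 0.179, edgeR adjusted p = 0.725). With 1 library left out, UBE2T ran from -0.36 to -0.14 and FANCM from 0.029 to 0.37. FANCC was at 16.1 ± 0.340 CPM in control and 16.1 ± 0.582 CPM in 4-OHT ATII CM. Of the exon bases of FANCL, 18.7% lie opposite VRK2, which had 2115 counts against 1018. Per length, UBE2T and FANCE were, after MUS81, the most abundant of the 36 genes, at 6.19 and 4.67 RPKM in control and 5.27 and 4.91 RPKM in 4-OHT ATII CM. The summed level of the 9 genes, FANCA included, was 80.6 ± 2.37 CPM in control and 77.2 ± 1.61 CPM in 4-OHT ATII CM, 4.28% lower, and that of FANCD2 and FANCI was 25.2 ± 1.80 and 18.3 ± 1.47 CPM, 27.5% lower.

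The BRCA mediators, which prepare the broken end for strand exchange, held 1 called gene, BRCA1, which acts from end resection onwards. BRCA1 (ENSG00000012048, chr17:43044295-43170245, minus strand) was at 9.65, 8.34 and 8.08 CPM in control and at 5.98, 6.14 and 5.67 CPM in 4-OHT ATII CM. The treated values lay close together and all below the controls, with means of 8.69 ± 0.844 and 5.93 ± 0.238 CPM. The log2 fold change was -0.55 (SE 0.106, edgeR adjusted p = 0.00501), and BRCA1 and FANCD2 were the genes of the list that stayed called whichever 1 of the 6 libraries was left out.

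BRCA2, which acts after BRCA1 and PALB2 at the resected end, was at 4.12, 3.08 and 3.62 CPM in control and 2.79, 2.81 and 2.28 CPM in 4-OHT ATII CM, without overlap but not called (log2 fold change -0.47, SE 0.167, edgeR adjusted p = 0.135). BRIP1, a helicase that binds BRCA1, was at 9.37, 9.01 and 8.60 CPM and at 7.99, 6.98 and 7.19 CPM, again without overlap and not called (log2 fold change -0.29, SE 0.0969, edgeR adjusted p = 0.110). BARD1, the obligate partner of BRCA1, had overlapping values with a log2 fold change of -0.15 (SE 0.117, edgeR adjusted p = 0.589), and PALB2, which ties BRCA1 to BRCA2, of 0.10 (SE 0.0884, edgeR adjusted p = 0.640). With 1 library left out, BARD1 ran from -0.22 to -0.061 and PALB2 from 0.051 to 0.14.

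The 5 genes of the paralog complexes, which support strand exchange, gave no call. XRCC2 was the exception in the separation of the groups, at 2.76, 3.30 and 2.96 CPM in control and 2.06, 2.53 and 2.02 CPM in 4-OHT ATII CM (log2 fold change -0.45, SE 0.171, edgeR adjusted p = 0.170). RAD51B, RAD51C, RAD51D and XRCC3 overlapped between the groups. RAD51C was at 14.97 ± 0.917 and 15.1 ± 0.862 CPM (log2 fold change 0.0095, SE 0.0768), and RAD51D at 17.1 ± 1.99 and 17.2 ± 0.155 CPM (log2 fold change 0.0012, SE 0.0809). RAD51B had the highest log2 fold change of the 36 genes, 0.27 (SE 0.178, edgeR adjusted p = 0.500), and XRCC3, of whose exon bases 76.7% lie opposite KLC1, was at -0.19 (SE 0.131, edgeR adjusted p = 0.507). With 1 library left out, RAD51B ran from 0.18 to 0.44 and XRCC3 from -0.30 to -0.072. The summed level of the 5 paralogs was 43.8 ± 2.51 CPM in control and 43.0 ± 0.763 CPM in 4-OHT ATII CM.

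The partners of strand exchange held the largest fold change of the list. MND1 forms a heterodimer with PSMC3IP (also known as HOP2) that stimulates strand invasion and is best known from meiosis. MND1 (ENSG00000121211, chr4:153344649-153415118, plus strand) was at 1.499, 1.74 and 1.77 CPM in control and at 0.868, 0.722 and 0.837 CPM in 4-OHT ATII CM. Every treated value lay well under every control value, with means of 1.67 ± 0.146 and 0.809 ± 0.0770 CPM and a log2 fold change of -1.04 (SE 0.231, edgeR adjusted p = 0.0130). These levels rest on 162 counts over the 6 libraries. MND1 was not called without control replicate 3 or without 4-OHT replicate 2 (edgeR adjusted p = 0.0549 and 0.0672, in a range of 0.00450 to 0.174 over the alternatives), and DESeq2 gave it no adjusted p. A further identifier, ENSG00000288637, holds 90.4% of the MND1 transcript without a mismatch and is absent from the count table.

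PSMC3IP was at 5.43, 7.17 and 4.72 CPM in control and 3.65, 3.57 and 4.53 CPM in 4-OHT ATII CM. The groups came close at 4.72 and 4.53 CPM, and the log2 fold change was -0.54 (SE 0.160, edgeR adjusted p = 0.0608), with 29.9% of its exon bases opposite MLX. It was called without control replicate 3 (edgeR adjusted p = 0.0332, in a range of 0.00677 to 0.866 over the alternatives). RAD51AP1, a DNA-binding protein that promotes strand invasion, was at 6.37, 6.55 and 6.88 CPM and at 5.25, 4.45 and 5.55 CPM (log2 fold change -0.38, SE 0.118, edgeR adjusted p = 0.0817). The motor protein RAD54L was at 2.86, 3.08 and 2.74 CPM and at 2.38, 1.80 and 1.90 CPM (log2 fold change -0.51, SE 0.175, edgeR adjusted p = 0.113), and 25.1% of its exon bases lie opposite LRRC41, which had 16630 counts against 325. In none of these 3 genes did the groups overlap, and none was called. RAD54B, with 126 counts over the 6 libraries the least counted of the 36 genes, ranged from 0.927 to 1.06 CPM in control and from 0.457 to 1.203 CPM in 4-OHT ATII CM (log2 fold change -0.16, SE 0.313). Of its exon bases 59.1% are shared on the same strand with FSBP, which had 60 counts, and the part of the handling of shared reads in its low count was not tested. The summed level of the 5 partners was 17.9 ± 1.45 CPM in control and 12.7 ± 1.02 CPM in 4-OHT ATII CM, 29.1% lower.

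Genes that cut back ends or resolve joined molecules were all below 0 in fitted log2 fold change, but none of the 6 was called. EXO1, the long-range resection nuclease, was at 5.86, 5.54 and 5.25 CPM in control and 4.43, 3.61 and 4.41 CPM in 4-OHT ATII CM (log2 fold change -0.42, SE 0.128, edgeR adjusted p = 0.0728). BLM, the helicase that dissolves double junctions, was at 2.48, 3.92 and 2.87 CPM and at 2.15, 2.05 and 2.28 CPM (log2 fold change -0.50, SE 0.189, edgeR adjusted p = 0.159). Neither gene overlapped between the groups, and control replicate 2 stood high for BLM, whose log2 fold change was -0.31 without it.

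EME1, the regulatory partner of the MUS81 nuclease, was at 2.67, 1.85 and 2.38 CPM in control and 1.69, 1.604 and 1.41 CPM in 4-OHT ATII CM. The log2 fold change of -0.57 (SE 0.199) was not called with all libraries (edgeR adjusted p = 0.129). Of its exon bases 16.4% lie opposite LRRC59, which had 27685 counts against 258. Without control replicate 2, its lowest control, EME1 was called as well (edgeR adjusted p = 0.0454, in a range of 0.0454 to 1 over the alternatives), which made 6 of the 36 genes, where 4.46% of genes were called lower. MUS81 itself was the most abundant of the 36 genes per length, at 7.21 RPKM in control and 6.46 RPKM in 4-OHT ATII CM, with 13.9% of its exon bases opposite CFL1, which had 113452 counts against 5028. Its values of 37.5, 41.5 and 39.5 CPM against 33.9, 35.97 and 36.2 CPM did not overlap (log2 fold change -0.16, SE 0.0514, edgeR adjusted p = 0.0979). RMI1 and RMI2, which hold BLM to its topoisomerase, overlapped between the groups with log2 fold changes of -0.16 and -0.10, which ran from -0.24 to -0.11 and from -0.18 to -0.031 with 1 library left out.

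MCM8, a helicase of repair synthesis, was at 11.7, 10.97 and 10.2 CPM in control and 9.36, 9.74 and 8.71 CPM in 4-OHT ATII CM, without overlap and not called (log2 fold change -0.24, SE 0.0897, edgeR adjusted p = 0.150). Its partner MCM9 was at 7.44 ± 0.704 and 7.44 ± 0.265 CPM. The checkpoint kinases overlapped between the groups: ATR was at 22.6 ± 2.02 and 21.7 ± 0.469 CPM (log2 fold change -0.064, SE 0.0690, edgeR adjusted p = 0.716), and CHEK1 at 22.7 ± 1.51 and 21.5 ± 1.76 CPM (log2 fold change -0.079, SE 0.0735, edgeR adjusted p = 0.660). With 1 library left out, ATR ran from -0.13 to -0.012 and CHEK1 from -0.14 to -0.016.

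**Figure D2:**
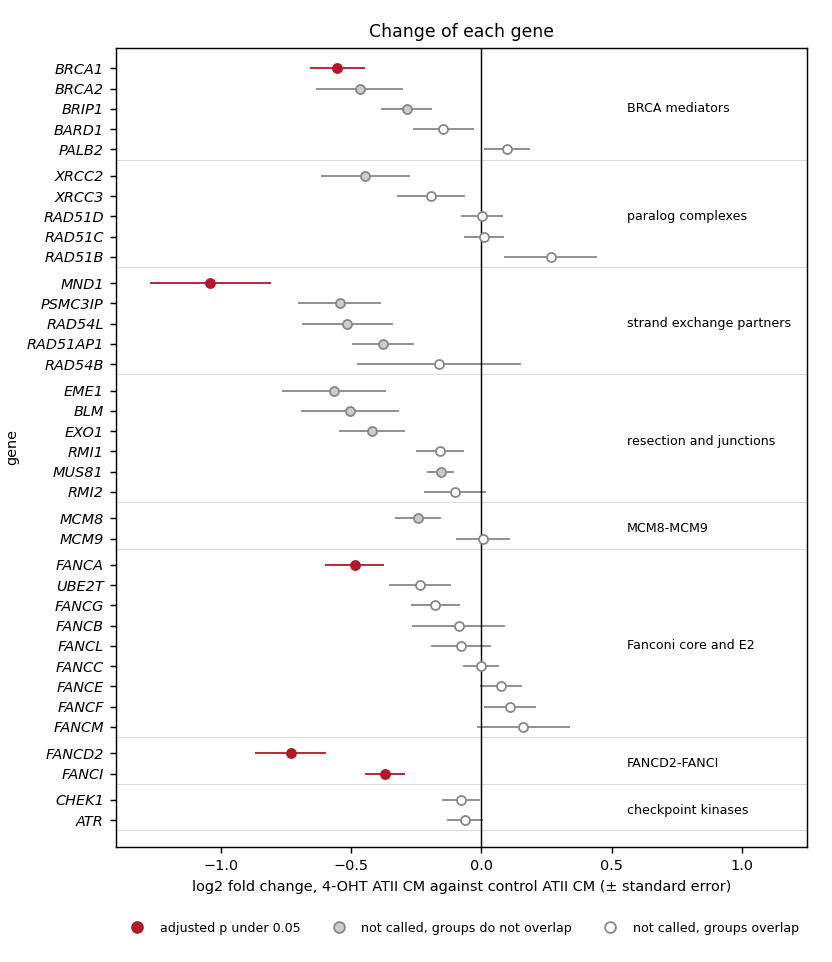
Log2 fold change of each gene in 4-OHT ATII CM against control ATII CM with its standard error (horizontal bar), from 3 libraries a group, ordered within each role; filled red points passed an edgeR adjusted p under 0.05, grey points did not but had groups that do not overlap, and open points had overlapping groups. The 5 red points are BRCA1, MND1, FANCA, FANCD2 and FANCI, at -0.55, -1.04, -0.49, -0.73 and -0.37.

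The lowest library of a gene was 4-OHT replicate 2 in 14 of the 36 genes, 4-OHT replicate 3 in 9, and control replicate 2 in 7. Control replicate 2 also held the highest value in 13 genes, so this library lay at both ends of the list. Summed over the 36 genes, the level was 339, 337 and 333 CPM in control and 307, 293 and 306 CPM in 4-OHT ATII CM. The sums did not overlap, with means of 336 ± 2.89 and 302 ± 7.54 CPM, 10.2% lower.

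Genes of the same and neighbouring pathways, from lists drawn up with results of these data known, are given beside the 2.76% of all genes called lower and 2.95% called higher. Of 28 tested other recombination genes 2 were lower and 0 higher: POLQ, a polymerase of end joining at resected breaks that the list held beside the recombination genes, at 5.86 ± 1.15 and 3.29 ± 0.346 CPM (log2 fold change -0.84, edgeR adjusted p = 0.00427), and FIGNL1, an ATPase of recombination, with a log2 fold change of -0.30 (edgeR adjusted p = 0.0480). Of 16 other Fanconi pathway genes 1 was lower, UHRF1, a sensor of crosslinks and of hemimethylated DNA (log2 fold change -0.28, edgeR adjusted p = 0.00339). Of 14 other checkpoint genes 2 were lower, TIMELESS (log2 fold change -0.27, edgeR adjusted p = 0.0267) and CLSPN (log2 fold change -0.39, edgeR adjusted p = 0.0316), both parts of the replication fork. Of 15 end joining genes 1 was lower, the kinase PRKDC (log2 fold change -0.39, edgeR adjusted p = 0.0182). POLQ and UHRF1 stayed called whichever 1 library was left out. FIGNL1 was lost whichever 1 library was left out (edgeR adjusted p = 0.0719 to 0.153, in a range of 0.0354 to 1 over the alternatives) and with DESeq2 (0.125). TIMELESS was lost without control replicate 2 or 3 or 4-OHT replicate 2 or 3 (edgeR adjusted p = 0.0526 to 0.136, in a range of 0.00349 to 1). CLSPN was lost without control replicate 1 or 2 or 4-OHT replicate 2 or 3 (edgeR adjusted p = 0.0672 to 0.143, in a range of 0.0127 to 1) and with DESeq2 (0.0566). PRKDC was lost without any 1 library but control replicate 2 (edgeR adjusted p = 0.0562 to 0.0982, in a range of 7.59e-17 to 1) and with DESeq2 (0.117). The median log2 fold changes of these lists were -0.058, -0.011, -0.10 and -0.045, against -0.17 for the 36 genes.

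Proliferation markers moved with the called genes: 17 of 18 were lower in 4-OHT ATII CM and 0 higher, with a median log2 fold change of -0.47, and all of the 17 but CCNE2, MCM2, MCM3 and MCM6 stayed called whichever 1 library was left out. MKI67, a protein of dividing cells, was at 41.5 ± 4.596 CPM in control and 24.2 ± 0.896 CPM in 4-OHT ATII CM, and TOP2A, the topoisomerase of mitotic chromosomes, at 98.5 ± 4.12 and 66.7 ± 4.58 CPM. PCNA, the sliding clamp of replication, was the marker not called (log2 fold change -0.11, edgeR adjusted p = 0.242). The summed level of the 18 markers ranged from 661 to 708 CPM in control and from 489 to 537 CPM in 4-OHT ATII CM, 24.6% lower. The summed level of the 36 genes was 49.8%, 47.6% and 50.4% of that of the markers in control and 57.2%, 60.0% and 58.9% of it in 4-OHT ATII CM. The part of cell division in the lower levels of the 5 genes was not tested.

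Regulators of cell cycle transcription, among them E2F activators and the DREAM complex, which represses genes of S and G2 phase in resting cells, were called lower in 4 of 19 genes and higher in 2. FOXM1 (log2 fold change -0.50, edgeR adjusted p = 0.000232), MYBL2 (-0.38, 0.00718), E2F1 (-0.48, 0.0139) and E2F2 (-0.86, 0.0358) were lower. TFDP2 (0.17, 0.0399) and the pocket protein RBL2 (0.15, 0.0462) were higher. FOXM1 and MYBL2 stayed called whichever 1 library was left out. E2F1 was lost without 4-OHT replicate 2 or 3 (edgeR adjusted p = 0.0808 and 0.0733, in a range of 0.000168 to 0.609 over the alternatives). E2F2 was lost without any 1 library but control replicate 1 (edgeR adjusted p = 0.0758 to 0.145, in a range of 0.00861 to 0.441), with DESeq2 (0.0645) and with limma-voom (0.0501). TFDP2 was lost whichever 1 library was left out (edgeR adjusted p = 0.05002 to 0.179, in a range of 0.0240 to 1) and with DESeq2 (0.133). RBL2 was likewise lost each time (edgeR adjusted p = 0.0631 to 0.214, in a range of 0.0169 to 1), with DESeq2 (0.124) and with limma-voom (0.0627).

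**Figure D3:**
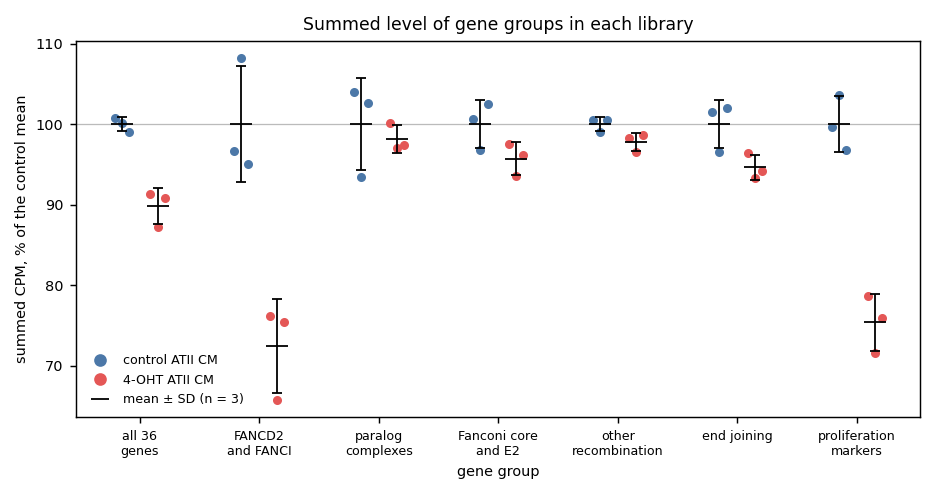
Summed CPM of gene groups in each library as a percentage of the mean of the 3 control ATII CM libraries, with the mean and SD of each group of 3. FANCD2 with FANCI and the proliferation markers were 27.5% and 24.6% lower in 4-OHT ATII CM, the 36 genes together 10.2%, and the paralog complexes 1.81%.

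The balance between partner genes of a complex was described from levels per length, for pairs chosen after the values were seen and with no test. BRCA1 to BARD1 was at log2 ratios of -0.12, -0.45 and -0.24 in control and -0.76, -0.70 and -0.55 in 4-OHT ATII CM. FANCD2 to FANCI was at -1.41, -1.35 and -1.72 in control and -1.86, -1.87 and -1.82 in 4-OHT ATII CM. In both, and in BRCA2 to PALB2, MND1 to PSMC3IP and BLM to RMI1, all treated libraries were below all controls. RAD51D to XRCC2 was higher in every treated library, at 1.85, 1.55 and 1.86 against 1.42, 0.96 and 1.46. The other pairs, among them EME1 to MUS81, MCM8 to MCM9 and FANCA to FANCG, overlapped.

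**Figure D4:**
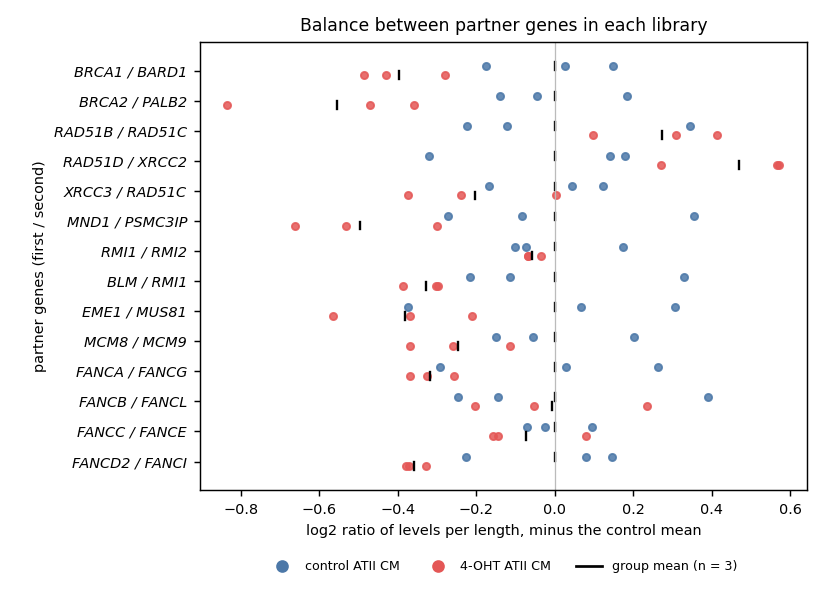
Log2 ratio of the levels per length of partner genes in each library, minus the mean of the 3 control ATII CM libraries; points are libraries and short bars are group means. The treated points lie below the control points for BRCA1 to BARD1 and FANCD2 to FANCI, above them for RAD51D to XRCC2, and among them for FANCB to FANCL.

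The promoters of the 36 genes were searched for letters that E2F and related factors are known to bind. RefSeq windows of GRCh38.p14, from 250 bases before to 50 after a start, were found for 33 of the 36 genes, and FANCI, RMI2 and RAD54B had none. The E2F letters were TTTGGCGC, TTTCCCGC, TTTGGCGG, TTTCGCGC and TTCCCGCC, on either strand. TTTCCCGC and TTCCCGCC can share bases of 1 stretch. At least 1 of them stood in 14 of 33 genes (42.4%), against 10.6% of the tested genes with a window (1309 of 12336) and 5.64% of all windows of the table. By separation of the groups, they stood in 10 of the 15 genes whose groups did not overlap (66.7%) and in 4 of the 18 that did (22.2%). The CCAAT box (CCAAT, either strand) stood in 51.5% of the 33 genes and 41.8% of the tested genes, and the CHR letters (TTTGAA or TTCGAA, either strand) in 9.09% and 15.8%. A match is a run of letters and not a site of binding, and no match says nothing of the factor.

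**Figure D5:**
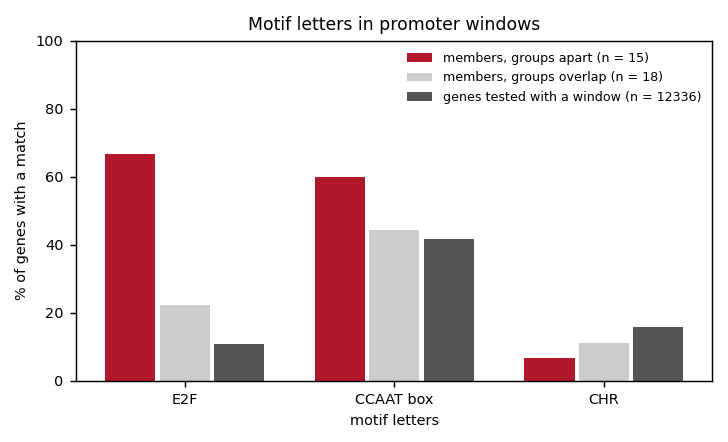
Percentage of genes with the E2F, CCAAT box or CHR letters in a RefSeq promoter window of 300 bases, for genes of the list whose groups did not overlap (n = 15), genes whose groups overlapped (n = 18) and all tested genes with a window (n = 12336). The E2F letters stood in 66.7%, 22.2% and 10.6% of them.

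Of the 4 called genes with a window, FANCD2 and MND1 held E2F letters, and BRCA1 and FANCA held none of them but held a CCAAT box. The stretch from 100 bases before to 30 after a start is shown for 4 genes with E2F letters whose groups did not overlap, and for 2 genes whose groups overlapped, FANCC with the letters and RAD51C without, so that the runs can be compared. Genes without the letters whose groups did not overlap, such as BRCA1 and FANCA, are not shown. Sequences are from RefSeq, written 5′ to 3′ on the gene's strand, with the matched E2F letters in capitals. They are FANCD2 (chr3:10026337-10026466, plus strand), MND1 (chr4:153344549-153344678, plus strand), RAD54L (chr1:46247588-46247717, plus strand), XRCC2 (chr7:152676112-152676241, minus strand), FANCC (chr9:95317680-95317809, minus strand) and RAD51C (chr17:58692473-58692602, plus strand).
FANCD2: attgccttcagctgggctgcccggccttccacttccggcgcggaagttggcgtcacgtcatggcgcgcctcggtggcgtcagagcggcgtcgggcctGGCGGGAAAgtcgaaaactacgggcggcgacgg
MND1: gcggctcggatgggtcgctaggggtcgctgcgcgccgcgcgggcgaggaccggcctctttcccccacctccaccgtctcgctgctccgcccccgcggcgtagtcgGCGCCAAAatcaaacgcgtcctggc
RAD54L: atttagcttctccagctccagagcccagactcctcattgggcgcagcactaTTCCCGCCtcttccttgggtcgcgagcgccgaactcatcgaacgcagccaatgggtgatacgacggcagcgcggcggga
XRCC2: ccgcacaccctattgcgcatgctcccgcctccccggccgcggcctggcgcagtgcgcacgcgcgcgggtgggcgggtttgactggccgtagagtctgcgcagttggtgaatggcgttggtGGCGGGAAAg
FANCC: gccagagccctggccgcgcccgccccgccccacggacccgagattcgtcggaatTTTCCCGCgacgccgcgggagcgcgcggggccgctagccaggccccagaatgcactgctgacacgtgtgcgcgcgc
RAD51C: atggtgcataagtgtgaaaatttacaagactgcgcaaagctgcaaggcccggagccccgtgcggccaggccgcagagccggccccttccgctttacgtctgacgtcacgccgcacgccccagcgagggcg

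Counted with the start as base 1 and the base before it as -1, the capitals begin at -3 in FANCD2, -49 in RAD54L and -46 in FANCC. In XRCC2 they begin at base 21 and in MND1 at base 6. MND1 and RAD54L each have a further RefSeq start, from which the same letters begin at -34 and -124. FANCC, with TTTCCCGC at -46, was at 16.1 CPM in both media, so letters of this kind also stood before a gene whose values overlapped.

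Of the 36 genes, 19 share exon bases with another gene and 10 of them with a gene of more counts.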

How the data were processed

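The deposited table holds raw read counts per gene. Per the labels and the submitters' processing notes, polyA libraries (NEBNext Ultra, paired reads) were trimmed with Trim Galore, aligned with HISAT2 2.1.0 to GRCh38 and counted by the authors with featureCounts 1.6.5; the annotation release, the strand setting and the handling of reads on 2 genes are not given in the sources used here. Columns were matched to samples by name. Genes with at least 10 counts over the 6 libraries were tested with edgeR 4.0.16 (TMM, quasi-likelihood, Benjamini-Hochberg over 19072 genes, 0.05), after a check on simulated data. Libraries held 17691849 to 26389449 counts, and the biological coefficient of variation was 4.36%. Alternatives were DESeq2 1.42.0, limma-voom 3.58.1, other scalings and filters, a 1.2-fold minimum, the replicate number as a block and leaving out each library. No p was computed for lists. Exon positions came from the deposited table itself. Copies were sought among GENCODE transcripts with minimap2 2.31-r1302, and promoters came from RefSeq GRCh38.p14. The rule for named genes was to give every called gene and every gene whose groups do not overlap with all values, the 3 most abundant per length, the smallest p not called in each role, and, from each list, at most 6 called genes by smallest p, with MKI67, TOP2A and PCNA in any case. For the proliferation and fibroblast lists, counts stand in place of most names. Certain items are not reported here. The 36 genes and all lists were chosen with earlier results of these data known.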

Additional observations from a re-analysis of the deposited data

How the results depend on the processing

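The 5 genes called lower became 4 with DESeq2, which gave MND1 and RAD54B no adjusted p, and 6 with a filter of at least 1 count, where PSMC3IP was added. Limma-voom, the other scalings and filterByExpr gave 5. A test beyond 1.2-fold left 0 of the 36 genes, 31 lower and 14 higher genes of all, and 4 lower and 0 higher of the lists. Leaving out 1 library gave 2 (without 4-OHT replicate 2, BRCA1 and FANCD2) to 6 (without control replicate 2) of the 36 genes. Over all genes it gave 244 to 834 lower and 289 to 696 higher, and over the lists 17 to 29 lower and 4 to 5 higher. With a filter of 1 count, 875 of all genes were higher, and FIGNL1 and VIM were not called (edgeR adjusted p = 0.0603 and 0.0606). PSMC3IP was also called without control replicate 3. CHR letters stood in 3 genes over the whole window and in 0 from 100 bases before to 50 after the start. The direction turned in 7 genes that were not called: FANCC was at 0.0065 with a filter of 1 count, and RAD51D at -0.00036 with RLE scaling and -0.00085 with filterByExpr. Without 1 library, log2 fold changes ran from -0.19 to 0.0060 for FANCB, -0.027 to 0.010 for FANCC, -0.18 to 0.035 for FANCL, -0.048 to 0.080 for MCM9, -0.030 to 0.060 for RAD51C, -0.078 to 0.079 for RAD51D and -0.46 to 0.13 for RAD54B.

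The replicate numbers did not pair the libraries: deviations of libraries with the same number correlated at -0.014, -0.10 and -0.093 over 9691 genes. With the number as a replicate block, 5 of the 36 genes, 483 lower (2.53%) and 502 higher of all genes and 26 lower and 4 higher of the lists were called, without FIGNL1, VIM, TFDP2 and RBL2 (adjusted p = 0.0821, 0.0570, 0.0632 and 0.0507). Few counts limit the tests of genes such as MND1 and RAD54B, and 3 libraries a group limit every test. The part of depth in these low counts was not tested.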
